A study of Mus musculus with 4 samples.

Results

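This report describes accessible chromatin at 38 mouse genes that encode Polycomb proteins, trithorax-group histone methyltransferases, histone demethylases, SWI/SNF remodeller subunits and histone acetyltransferases with their partners. The genes were taken by symbol at their mm10 coordinates, and every peak within a gene body or 20 kb on either side of it was used. Peaks of the 4 libraries that shared at least 1 bp were joined into regions, which gave 342 regions near these genes out of 77914 in all. ATAC-seq, in which a transposase cuts and tags open DNA, had been run on MPP3 cells, multipotent bone marrow progenitors that lean towards granulocytes and monocytes. The cells were flow-sorted from WT-iMOS mice aged 3 months and fell into a group labelled T1 (2 libraries) and a group labelled T2 (2 libraries). Both groups carry the same WT-iMOS designation in their labels, and the stated purpose of the series was the role of Bcl11a, a zinc-finger transcription factor, inside MPP3 cells. The labels used here explain neither T1, T2 nor iMOS, and do not say whether the 2 libraries of a group came from separate animals, so the spread between them may be technical only.

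Polycomb and trithorax proteins are opposing chromatin regulators that keep genes off or on through cell division. Polycomb repressive complex 2 (PRC2) methylates lysine residues of histone H3 and Polycomb repressive complex 1 (PRC1) ubiquitinates histone H2A, while trithorax-group enzymes of the COMPASS family methylate another lysine of H3 at promoters and enhancers. SWI/SNF complexes use ATP to slide or evict nucleosomes, and BCL11 proteins have been found among their partners. In blood progenitors several of these genes, among them Kmt2a, Ezh2 and Bmi1, are known regulators of stem cell self-renewal.

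Each deposited list held the authors' peak calls for 1 library, 58469 and 54057 peaks in T1 replicates 1 and 2 and 66776 and 62718 in T2 replicates 1 and 2. The lists carry no read counts, so depth is unknown. Peak strength was read from the deposited −log10 q, the significance of a peak over its local background, and was used only as an order within a library. The cell label was checked at gene starts or, for genes without a listed start, gene ends. Among 10 progenitor markers 7 had a peak there in all 4 libraries, including Kit, Cd34, Flt3 and Cebpa, while Ly6a and Spi1 had none and Mpo had one in both T2 libraries and in neither T1 library. T and NK markers (Cd3e, Cd3d, Cd8a, Ncr1) had none in any library. Of 6 neutrophil and macrophage markers 4 had none, and S100a8 had one in both T1 libraries and in neither T2 library. The other marker, Adgre1, had a peak in all 4 libraries, at 63.1 and 51.6 in T1 and 57.2 and 50.6 in T2 (percentiles of the library's own list). Some markers open in all 4 libraries stood at higher percentiles of the library's own list in both T2 libraries. The T2 lists were longer, and many other starts did the same. Of all start regions with a peak in all 4 libraries, 34.4% stood higher in both T2 libraries on this scale and 16.1% in both T1 libraries. Cd34 stood at 69.6 and 67.6 in T1 and 83.0 and 84.0 in T2, and Fcgr3 at 57.6 and 42.1 in T1 and 68.1 and 68.8 in T2. Of the stem cell markers 3 of 4 were open in all libraries (Hlf, Procr and Mecom), and Mecom stood at 22.7 and 20.2 in T1 and 51.4 and 45.0 in T2. Of the megakaryocyte markers 2 of 3 were, with Pf4 at 72.6 and 70.2 in T1 and 82.2 and 82.0 in T2 and Itga2b at 82.5 and 77.5 in T1 and 86.3 and 90.5 in T2. Peaks in all 4 libraries were also found at 1 of 4 erythroid, 1 of 3 endothelial, 2 of 3 stromal and 2 of 4 epithelial and neural markers, and at 0 of 4 B cell and 0 of 3 mast cell and basophil markers. The part of these markers in the results below was not tested. In such bulk libraries a site open in fewer cells and a site less open in each cell cannot be told apart.

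The sequences below stand for the kinds of promoter found among these genes, because the results turn on the regions at gene starts. Each is the 250 bases before a RefSeq start on GRCm38.p6, the assembly behind mm10, written 5′ to 3′ on the strand of the gene, with every CG dinucleotide in capitals. Kmt2a (chr9:44881290-44881539, minus strand) had the largest rank difference of all the starts, and its 250 bases hold 29 CG. Smarcd1 (chr15:99702037-99702286, plus strand, 29 CG) and Cbx7 (chr15:79932647-79932896, minus strand, 23 CG) are the members whose upstream sequence holds TGACCA, the motif bound by BCL11A. Both hold it on the opposite strand, so that the printed letters are TGGTCA. The first of these letters lies 144 bases before the Smarcd1 start and 184 bases before the Cbx7 start.
Kmt2a: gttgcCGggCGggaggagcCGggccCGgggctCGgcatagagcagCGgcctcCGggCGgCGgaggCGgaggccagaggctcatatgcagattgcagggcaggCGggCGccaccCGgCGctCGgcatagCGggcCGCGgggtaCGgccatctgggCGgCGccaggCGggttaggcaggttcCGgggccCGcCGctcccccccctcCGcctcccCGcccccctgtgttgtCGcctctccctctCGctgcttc
Smarcd1: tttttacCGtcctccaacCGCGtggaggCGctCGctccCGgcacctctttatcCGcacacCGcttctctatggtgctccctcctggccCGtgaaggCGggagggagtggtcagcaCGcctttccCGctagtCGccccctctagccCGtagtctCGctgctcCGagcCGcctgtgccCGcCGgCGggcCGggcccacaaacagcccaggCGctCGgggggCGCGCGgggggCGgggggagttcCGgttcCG
Cbx7: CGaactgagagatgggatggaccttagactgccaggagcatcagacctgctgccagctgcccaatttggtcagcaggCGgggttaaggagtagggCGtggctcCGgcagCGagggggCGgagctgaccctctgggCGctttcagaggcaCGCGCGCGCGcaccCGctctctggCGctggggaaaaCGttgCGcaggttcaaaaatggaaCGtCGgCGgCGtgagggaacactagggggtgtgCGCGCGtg
Phc2 and Pcgf5 have 3 listed starts each, with a CG-poor start between CG-rich or CG-moderate ones. For Phc2 the stretches lie at chr4:128654452-128654701 (13 CG), chr4:128688488-128688737 (1 CG) and chr4:128727321-128727570 (34 CG), all on the plus strand.
Phc2 start 1: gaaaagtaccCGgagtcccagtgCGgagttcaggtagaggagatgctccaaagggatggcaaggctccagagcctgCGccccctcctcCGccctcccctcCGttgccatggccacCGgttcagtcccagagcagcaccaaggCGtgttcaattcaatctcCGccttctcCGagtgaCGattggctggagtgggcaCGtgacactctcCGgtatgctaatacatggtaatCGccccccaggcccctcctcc
Phc2 start 2: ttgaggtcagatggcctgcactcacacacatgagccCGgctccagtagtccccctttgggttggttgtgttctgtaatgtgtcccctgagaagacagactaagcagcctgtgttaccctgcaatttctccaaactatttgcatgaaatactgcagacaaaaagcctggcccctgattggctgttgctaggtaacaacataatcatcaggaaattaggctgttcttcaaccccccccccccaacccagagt
Phc2 start 3: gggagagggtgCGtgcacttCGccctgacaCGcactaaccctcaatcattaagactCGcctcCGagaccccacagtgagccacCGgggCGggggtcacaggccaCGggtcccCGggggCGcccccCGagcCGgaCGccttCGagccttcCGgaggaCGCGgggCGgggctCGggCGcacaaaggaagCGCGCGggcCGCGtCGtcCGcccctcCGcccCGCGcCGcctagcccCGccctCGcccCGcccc
For Pcgf5 they lie at chr19:36348079-36348328 (23 CG), chr19:36378817-36379066 (4 CG) and chr19:36409498-36409747 (28 CG), also on the plus strand.
Pcgf5 start 1: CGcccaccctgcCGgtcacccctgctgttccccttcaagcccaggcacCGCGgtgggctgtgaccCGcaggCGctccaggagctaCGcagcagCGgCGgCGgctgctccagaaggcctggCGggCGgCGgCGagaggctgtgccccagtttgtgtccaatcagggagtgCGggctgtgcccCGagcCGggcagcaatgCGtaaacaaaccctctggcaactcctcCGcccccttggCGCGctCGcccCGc
Pcgf5 start 2: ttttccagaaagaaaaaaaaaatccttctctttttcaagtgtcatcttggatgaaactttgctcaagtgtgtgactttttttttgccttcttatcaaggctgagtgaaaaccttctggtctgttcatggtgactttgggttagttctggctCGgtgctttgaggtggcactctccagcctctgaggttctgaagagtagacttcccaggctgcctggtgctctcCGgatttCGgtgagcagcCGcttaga
Pcgf5 start 3: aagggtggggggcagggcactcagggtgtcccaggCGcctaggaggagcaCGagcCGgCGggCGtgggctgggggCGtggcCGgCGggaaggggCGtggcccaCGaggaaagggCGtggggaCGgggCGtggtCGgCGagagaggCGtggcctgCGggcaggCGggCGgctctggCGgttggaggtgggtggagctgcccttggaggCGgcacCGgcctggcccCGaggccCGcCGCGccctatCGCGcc

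As a set these promoters were rich in CG. The 36 starts listed for 30 of the 38 genes had a median of 23 CG in 250 bases (range 1 to 48), against a median of 6 over the 32851 starts in the table, and a median GC content of 68% against 52.4%. The other 8 genes are Cbx2, Pcgf1, Kmt2b, Setd1b, Kdm5a, Kdm6b, Arid2 and Smyd3. Motifs were searched by exact letters on both strands, and no motif contains another. GGGCGG, the box read by SP and KLF factors, was in 28 of 36 member stretches (77.8%) against 32.7% of all. TGACCA was in 2 (5.56%) against 11.4% of all, CCAAT in 8 (22.2%) against 33.8%, and the E-box CACGTG in 5 (13.9%) against 6.02%. The ETS letters CCGGAAG were in 3 (8.33%) against 6.91%, and the CRE letters TGACGTCA in 1 (2.78%) against 1.55%. The NRF1 motif and the longer YY1 motif were in 0 of 36, against 0.782% and 0.207% of all. A match of letters is no binding site, and its absence says only that the letters are not in that window.

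The regions at the starts of these genes were open in every library and ranked higher in T1 than in T2 at most of them, with the clearest differences at the H3K4 methyltransferase and SWI/SNF genes. A region was assigned to a start when it overlapped the window from 250 bases before to 50 after it. Other genes also start in the regions of Ezh2 (F830010H11Rik), Kmt2c (4831440E17Rik), Pbrm1 (Gnl3) and the third Phc2 start (Gm33712). Of the 36 starts 34 had a region, while 47.0% of all listed starts did. The 33 distinct start regions (2 Jarid2 starts share one) had a peak in all 4 libraries, as did 90.3% of all 11962 regions at a listed start. To compare order, the best −log10 q of each region was ranked within a library over the 44274 regions with a peak in all 4 libraries, so that the 4 rankings hold the same regions and the same number of them. The rank is given as a percentile, with 100 the strongest. A region is said to rank higher in a group when both its libraries stood above both of the other group, that is when the groups did not overlap.

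Of the 33 start regions, 23 ranked higher in T1, 0 ranked higher in T2 and 10 overlapped. Over all 10797 shared start regions the percentages were 29.8 for T1 and 22.1 for T2. The difference of means, T2 minus T1, was below 0 at 32 of the 33 regions, with a median of -6.83 percentile points (range -26.3 to 0.257) against -0.48 over all start regions. The median start percentile of the members was 86.0 and 86.4 in T1 replicates 1 and 2 and 81.7 and 78.3 in T2 replicates 1 and 2, or 86.2 ± 0.335 against 80.0 ± 2.43 (SD, n = 2 per group). Over all starts the same medians were 77.8 ± 0.664 in T1 and 76.2 ± 0.921 in T2 (SD, n = 2 per group). Between replicates the median absolute difference at member starts was 2.23 points in T1 and 2.92 in T2. With 2 libraries against 2 an exact two-sided permutation test cannot give a p below 0.333, so these orders are descriptions of 4 libraries. A percentile gives an order only, and a lower one does not show that a site was less accessible.

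**Figure D1:**
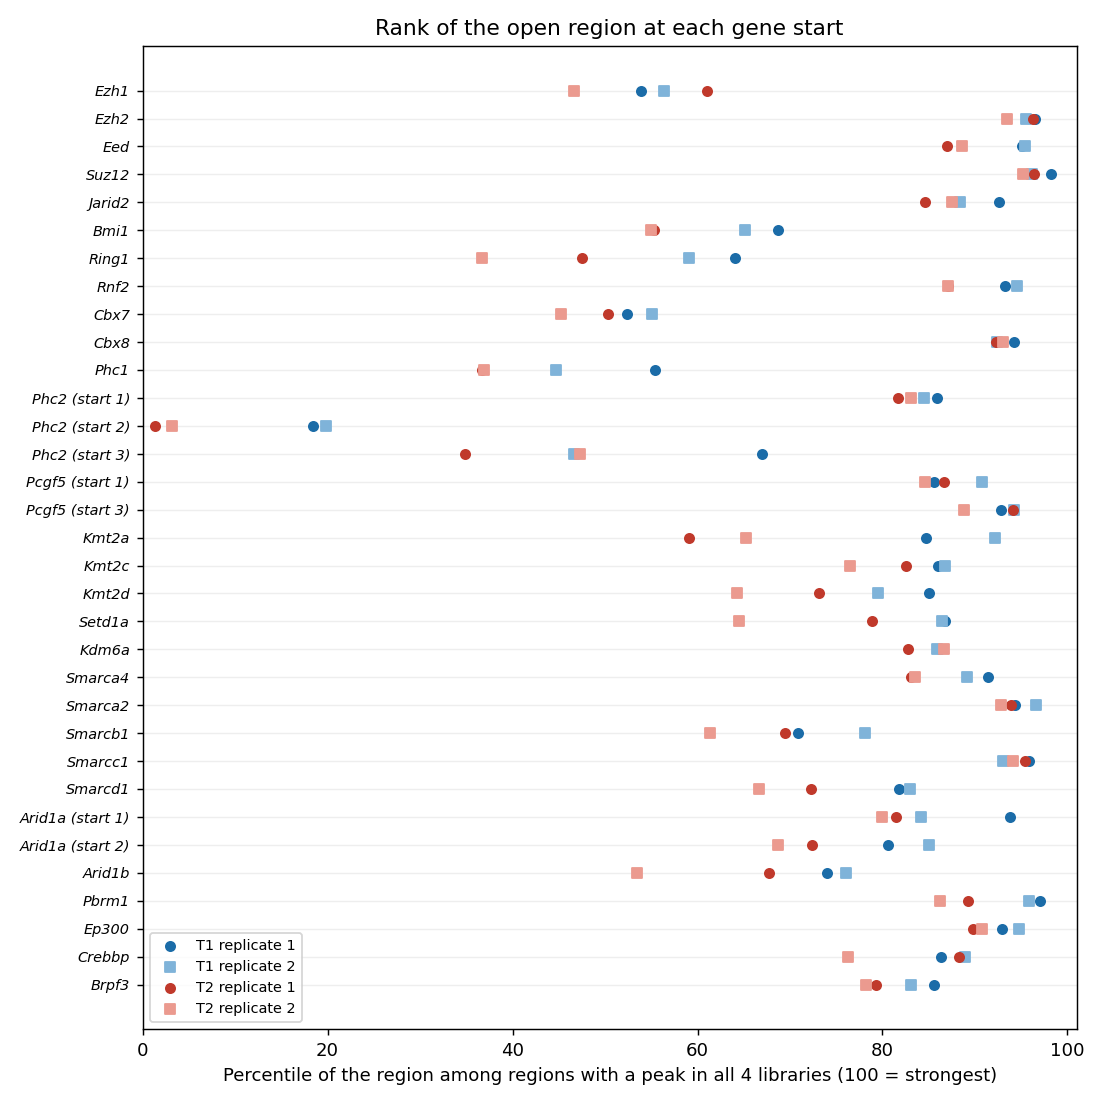
Percentile of the open region at each gene start among regions with a peak in all 4 libraries (x axis, 100 = strongest), 1 row per start region (y axis), with a circle for replicate 1 and a square for replicate 2, T1 in blues and T2 in reds. At 23 of the 33 start regions both T1 points lie to the right of both T2 points, and at 0 the reverse.

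The order was also read among starts of similar CG content or of similar rank. These strata were chosen after the data had been seen and share members. The part of CG content or rank in the order was not tested. Among shared start regions with at least 20 CG, 18 of 26 member regions ranked higher in T1 and 0 in T2, where the percentages over all 4207 such regions were 36.0 and 17.6. Among start regions between the lower and upper quartile of the member starts (percentiles 69.9 to 91.5), 14 of 17 member regions ranked higher in T1 and 0 in T2, against 34.9% and 20.8% of 3965. Their median difference was -6.94 points, against -1.18 over all in that range. When each library's own whole list set the ranks, T2 lists being longer, 15 start regions ranked higher in T1 and 0 in T2, while over all start regions 16.1% ranked higher in T1 and 34.4% in T2. With summit windows in place of joined peaks, 16 ranked higher in T1 and 0 in T2. Over all 9868 shared start regions of that setting the percentages were 29.7 and 22.2. The number of member start regions under it is not given here.

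Among PRC2 genes the start of Eed was the one that set T1 and T2 apart most. Eed, the subunit that reads the methyl mark PRC2 lays down, stood at percentiles 95.1 and 95.4 in T1 replicates 1 and 2 and 87.0 and 88.6 in T2 replicates 1 and 2, a difference of -7.47. Jarid2, a DNA-binding cofactor of PRC2, stood at 92.6 and 88.4 in T1 and 84.6 and 87.5 in T2. At both genes the T1 libraries lay above the T2 libraries, narrowly so at Jarid2. The catalytic subunit gene Ezh2 overlapped between groups, at 96.5 and 95.6 in T1 and 96.3 and 93.5 in T2. Suz12, the scaffold of the complex, stood at 98.2 and 96.2 in T1 and 96.4 and 95.2 in T2 and overlapped too. Ezh1, the alternative catalytic subunit, had a middling start at 53.9 and 56.4 in T1 and 61.0 and 46.7 in T2, with the T2 libraries on either side of T1. The median difference over the 5 PRC2 start regions was -1.39.

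Among the 11 PRC1 start regions 7 ranked higher in T1 and 4 overlapped, with a median difference of -6.80. Ring1, an E3 ligase that ubiquitinates H2A, stood at 64.1 and 59.1 in T1 and 47.5 and 36.7 in T2, a difference of -19.5. Bmi1, a ligase partner needed for stem cell self-renewal, stood at 68.8 and 65.2 in T1 and 55.3 and 55.0 in T2. Both T1 libraries were above both T2 libraries at each. Rnf2, the paralogue of Ring1, was near the top of the ranking in all libraries, at 93.2 and 94.6 in T1 and 87.1 and 87.1 in T2. Phc1, which polymerises PRC1 through its SAM domain, had a weaker start region at 55.4 and 44.7 in T1 and 36.7 and 36.9 in T2. Of the chromobox genes, whose proteins dock PRC1 on methylated H3, Cbx7 stood at 52.4 and 55.0 in T1 and 50.3 and 45.2 in T2, with a gap between the groups smaller than that between replicates. Cbx8 stood at 94.2 and 92.4 in T1 and 92.3 and 93.1 in T2, so the groups overlapped.

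Phc2 and Pcgf5, with several starts each, had mean ranks below T1 in T2 at every start with a region. At Phc2, another SAM domain protein, the first listed start ranked 85.9 and 84.5 in T1 and 81.7 and 83.1 in T2. Its CG-poor second start ranked 18.4 and 19.9 in T1 and 1.33 and 3.19 in T2, the weakest of all member start regions and the only one below the 50th percentile in all 4 libraries. T1 stood above T2 at both. The third start ranked 67.0 and 46.7 in T1 and 34.8 and 47.3 in T2, where the T1 libraries themselves were far apart and the groups overlapped. At Pcgf5, a RING-finger subunit of variant PRC1, start 1 ranked 85.6 and 90.8 in T1 and 86.7 and 84.6 in T2, and start 3 ranked 92.8 and 94.2 in T1 and 94.1 and 88.9 in T2. Both overlapped, and the CG-poor start 2 had no region, the nearest lying 2132 bp away. Across the 34 starts with a region, CG content and mean rank were weakly related (Pearson 0.366, Spearman 0.098, points that share 4 libraries), which is no finding.

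All 4 H3K4 methyltransferase start regions ranked higher in T1, with a median difference of -14.2. Kmt2a, the MLL gene, had the largest difference of any start, at 84.7 and 92.2 in T1 and 59.1 and 65.3 in T2, or -26.3 points. Its deposited −log10 q was 101.5 and 112.8 in T1 and 49.9 and 48.8 in T2. The region spans 44881053 to 44883239 on chromosome 9 and covers the start at 44881289. The rest of the Kmt2a window went the other way. A region 2125 bp into the gene (44879005 to 44879323) ranked 4.99 and 4.56 in T1 and 15 and 10.3 in T2, and one at the start of the neighbouring gene Tmem25 (44798934 to 44800330) ranked 50.9 and 46.5 in T1 and 69.2 and 66.4 in T2. These are the 3 regions of that window shared by all libraries. Setd1a, a catalytic subunit that deposits much of the promoter mark, stood at 86.8 and 86.4 in T1 and 78.8 and 64.5 in T2. Kmt2d, the main enhancer methyltransferase, stood at 85 and 79.5 in T1 and 73.2 and 64.2 in T2. In both the T2 libraries differed from each other by over 5 points and stayed below T1. Kmt2c, its paralogue, stood at 86.0 and 86.7 in T1 and 82.6 and 76.4 in T2.

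The demethylase genes had 1 start region, that of Kdm6a. Kdm6a, an X-linked eraser of the PRC2 mark, stood at 86.2 and 85.9 in T1 and 82.8 and 86.7 in T2 and overlapped. Kdm5b, which erases the mark laid down by COMPASS enzymes, had no region at its listed start at 134560178 on chromosome 1. The nearest lay 647 bp away, and a strong region upstream of it (134556377 to 134557330) ranked 89.4 and 80.4 in T1 and 88.5 and 91.6 in T2, also overlapping.

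Of the 9 SWI/SNF start regions 8 ranked higher in T1, with a median difference of -8.66. Arid1b, a DNA-binding subunit of the canonical complex, stood at 74.0 and 76.1 in T1 and 67.8 and 53.5 in T2, a difference of -14.4. Smarcd1, a subunit that links the complex to transcription factors, stood at 81.7 and 83.0 in T1 and 72.2 and 66.7 in T2. T2 was below T1 at both, with the lowest value in T2 replicate 2. The paralogue Arid1a has 2 starts with a region of their own, ranked 93.8 and 84.2 in T1 and 81.4 and 79.9 in T2 at 133753985, and 80.5 and 85 in T1 and 72.3 and 68.6 in T2 at 133756769 on chromosome 4. Smarcb1, a core subunit lost in rhabdoid tumours, stood at 70.9 and 78.1 in T1 and 69.5 and 61.4 in T2. Pbrm1, a bromodomain subunit of the PBAF form, stood at 97.0 and 95.9 in T1 and 89.3 and 86.3 in T2. T1 exceeded T2 at each of these, and at Smarcb1 the nearest libraries of the groups lay close together. The ATPase genes differed in size: Smarca4 stood at 91.4 and 89.1 in T1 and 83.1 and 83.6 in T2, and Smarca2 at 94.4 and 96.6 in T1 and 93.9 and 92.8 in T2. Smarcc1, a scaffold subunit, was the single start with a positive difference (0.257), at 95.8 and 93.1 in T1 and 95.4 and 94.1 in T2, and overlapped.

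Of the 3 start regions of the acetyltransferase genes and Brpf3, 2 ranked higher in T1 and 1 overlapped, with a median difference of -5.39. Ep300, which acetylates histones at enhancers, stood at 92.9 and 94.8 in T1 and 89.8 and 90.7 in T2. Its paralogue Crebbp stood at 86.3 and 89.0 in T1 and 88.3 and 76.2 in T2 and overlapped, T2 replicate 2 lying well below the rest. Brpf3, a scaffold of a histone acetyltransferase complex, stood at 85.6 and 83.1 in T1 and 79.3 and 78.3 in T2. For genes with no listed start, the region at a gene end was read instead, without knowing which end is the start. Such a region had to cover the end base itself, a stricter rule than the window used at starts. Pcgf1 and Kdm6b had none. The region inside Pcgf1 (83077714 to 83078963, chromosome 6) ranked 76.3 and 72.4 in T1 and 74.9 and 65.9 in T2, and overlapped. The one nearest an end of Kdm6b (69417623 to 69419618, chromosome 11) ranked higher in T2, at 84.3 and 84.9 in T1 and 88.1 and 91.6 in T2. Of the 6 gene-end regions at the other genes 4 ranked higher in T1 and 2 overlapped. The share over gene ends of all genes was not computed, so this count has no background beside it. Arid2 (96285119 to 96287956 on chromosome 15), a PBAF subunit, had the largest difference, at 83.6 and 86.2 in T1 and 80.2 and 72.7 in T2. Kmt2b ranked 91.6 and 92.8 in T1 and 89.2 and 83.3 in T2. Setd1b ranked 68.2 and 61.3 in T1 and 60.3 and 59.0 in T2, and the Kdm5a region, which also lies at a start of Ccdc77, ranked 91.5 and 92.6 in T1 and 89.7 and 89.1 in T2. Both stood higher in T1. The regions of Cbx2 (difference -4.63) and of Smyd3 (-1.24) overlapped. That of Cbx2 also lies at a start of Gm35829, and those of Kmt2b, Setd1b and Arid2 also overlap the genes Zbtb32, Rhof and Gm38469.

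**Figure D2:**
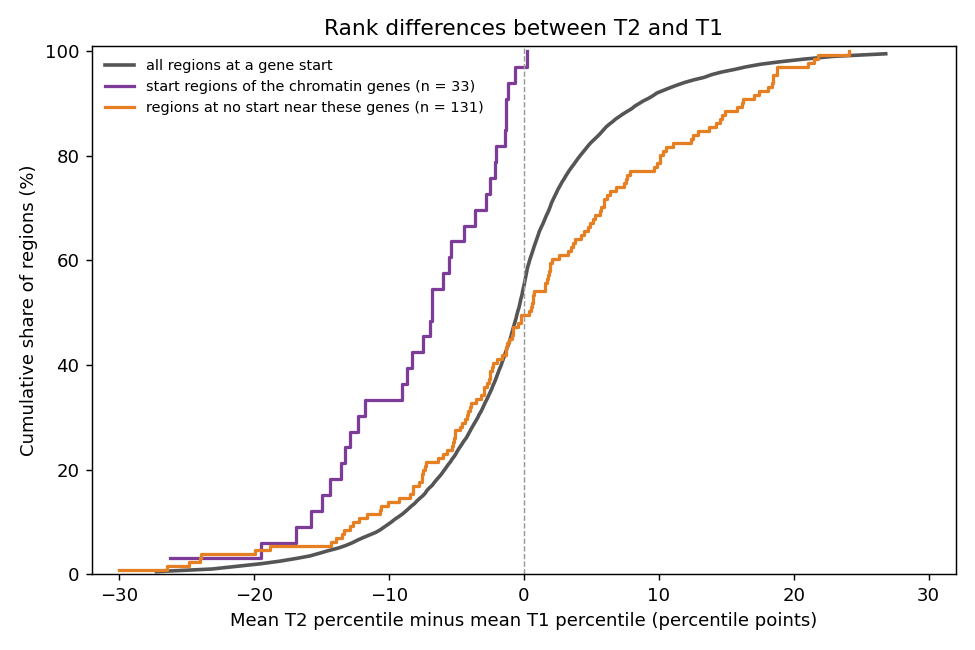
Cumulative share of regions (y axis, %) by the difference of mean percentiles, T2 minus T1 (x axis, percentile points), for the 33 start regions of these genes, the 131 shared regions near them at no listed start, and all shared start regions. The start regions of these genes lie almost wholly below 0, with a median of -6.83, while the regions at no listed start have a median of 0.39.

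Away from listed starts the same genes showed no lean towards T1. The gene-end regions of Kmt2b, Setd1b, Arid2 and Smyd3 are counted here, because these genes have no listed start. So are the regions inside Pcgf1 and Kdm6b, for the same reason. Of 131 shared regions at no listed start, 30 ranked higher in T1 (22.9%) and 41 in T2 (31.3%), against 25.0% and 27.7% of all 33477 such regions. Over all 198 shared regions near these genes, start regions included, 65 ranked higher in T1 (32.8%), where the percentage over all 44274 was 26.2. In the same set 47 ranked higher in T2 (23.7%, against 26.3), 86 overlapped, and the median difference was -1.50 points against 0.02. Ranked in each library's own list that median was 1.20. Kdm6b, a demethylase of the PRC2 mark induced by inflammatory signals, had the clearest T2 side among the demethylases, with 4 shared regions higher in T2 and 2 higher in T1. Its region at 69417623 to 69419618 on chromosome 11 ranked 84.3 and 84.9 in T1 and 88.1 and 91.6 in T2. Ezh1 also had 4 higher in T2 and 1 higher in T1. Setd1a, with 3 higher in T1 and 0 in T2, was on the T1 side, but its own start and that of Orai3 are among the 3.

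The 10 non-overlapping shared regions with the largest rank difference had 7 on the T1 side and 3 on the T2 side, and 1 of them was a member start, that of Kmt2a. Over all 44274 shared regions 26.2% ranked higher in T1 and 26.3% in T2. How the largest differences split over all regions was not computed, so the 7 and 3 are no lean. Inside Arid1b a region at 5210633 to 5211429 on chromosome 17 ranked 68.3 and 68.4 in T1 and 36.2 and 40.4 in T2 (difference -30.0). Another in that gene, at 5316490 to 5317051, ranked 74.5 and 82.9 in T1 and 59.0 and 50.5 in T2. Both lay deep in the gene, over 200 kb from its start, and both stood higher in T1. Downstream of Brpf3, the region at 28855723 to 28856649 on chromosome 17 ranked 71.8 and 67.5 in T1 and 40.5 and 45.8 in T2. Beyond Kdm5a, the region at 120452878 to 120453556 on chromosome 6 ranked 62.4 and 64.0 in T1 and 42.5 and 35.9 in T2. Several others belonged as much to a neighbouring gene. In the Ezh1 window the region at the Plekhh3 start (101171176 to 101171714, chromosome 11) ranked 61.8 and 70.2 in T1 and 39.8 and 40.8 in T2. Upstream of Smarcb1 on chromosome 10, a region in Mmp11 (75926466 to 75926922) ranked 14.8 and 39.5 in T1 and 3.52 and 1.10 in T2, while one in Chchd10 (75935546 to 75936499) ranked 30.7 and 44.7 in T1 and 58.5 and 65.2 in T2. These neighbouring regions differed in opposite directions. Upstream of Phc2 a region at the start of Gm12958 (128637129 to 128637641, chromosome 4) ranked 6.56 and 7.04 in T1 and 37.3 and 30.7 in T2. In the Crebbp window a region in Trap1 (4074895 to 4075271, chromosome 16) ranked 5.97 and 11.8 in T1 and 27.3 and 34.0 in T2.

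Presence of peaks leaned the other way, towards T2, and away from starts. Peaks were found in 256 and 230 member regions in T1 and in 295 and 277 in T2, or 243 ± 18.4 against 286 ± 12.7 (SD, n = 2 per group; exact permutation p = 0.333, the smallest possible). Over the genome the libraries held 57957 and 53188 regions in T1 and 66134 and 61672 in T2, so the T2 lists were longer genome-wide. Near the members 198 of 342 regions had a peak in all 4 libraries (57.9%, 56.8 over all regions). A region with a peak in both T2 libraries and neither T1 library is called T2-only, and the reverse T1-only. There were 30 T2-only regions (8.77%, 95% Wilson interval 6.21 to 12.2) against 6.88% of all regions and 6.56% of those in windows of protein-coding genes. There were 5 T1-only regions (1.46%, 0.626 to 3.38) against 2.33% and 2.23%. Both intervals hold the percentages given beside them. They cover counting error only, and the remaining 109 regions had other combinations. When each list was shortened to the 54045 peaks of the shortest, 11 member regions were T2-only and 13 T1-only. Over all regions the counts were then 2958 and 3145 (4.33% and 4.61%). At equal list length T2-only regions no longer outnumbered T1-only regions, near these genes or over all regions.

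**Figure D3:**
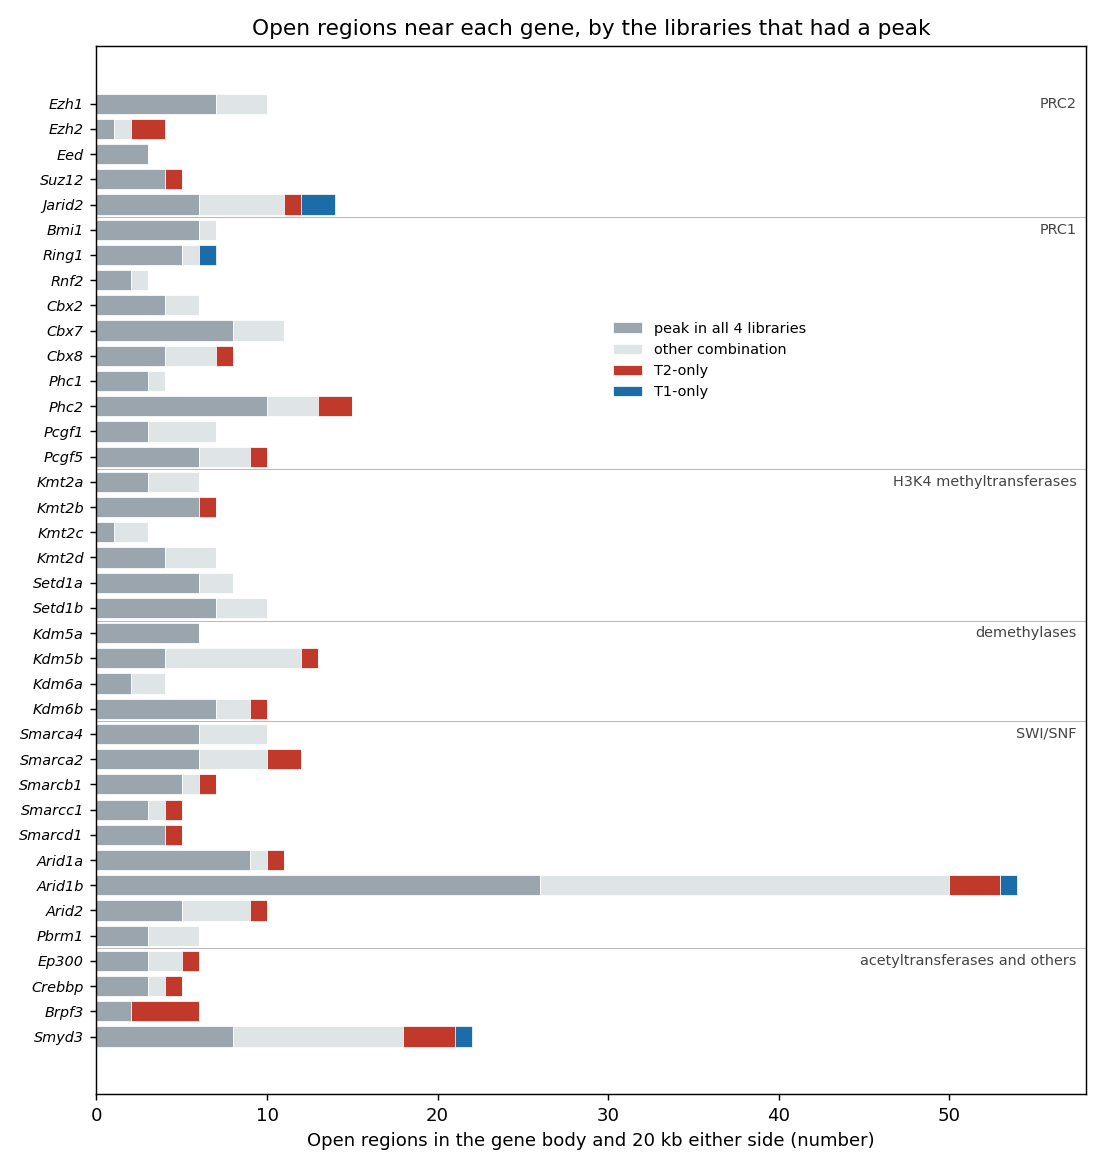
Number of open regions in the gene body and 20 kb either side (x axis) for each of the 38 genes (y axis), grouped by role and coloured by which libraries had a peak. Arid1b has 54 regions, Brpf3 has 4 T2-only regions of 6, and Jarid2 is the one gene with 2 T1-only regions.

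The genes differed widely in how many regions they held. The median was 7 per member against 4 per protein-coding gene, and the range was 3 to 54. Arid1b was at the top, a count that 5 of 21887 genes (0.0228%) reach, itself included. Longer members tended to hold more regions (Pearson 0.617, Spearman 0.230 over the 38 members, which share the same libraries). A T2-only region was found at 20 members (52.6%; 22.3% of protein-coding genes), a T1-only region at 4 (10.5%; 8.24%), both at 3 and neither at 17. Since members hold more regions than other genes, these percentages are not set against each other further. The group-only regions lay away from the members' starts, as group-only regions mostly did over all genes. Of all 11962 regions at a listed start 0.259% were T1-only and 1.86% T2-only, against 2.70% and 7.80% of regions at no start. Of the 35 near the members, 22 lay in the member's gene, and only the one at Gm35883 in the Brpf3 window overlapped any listed start. Where the member has a start, the nearest lay 7.24 kb and the farthest 327 kb from it (median 41.5 kb, 28 regions). T2-only regions had a median width of 470.5 bp against 781 bp for shared member regions. Their median percentile within a library's own full list was 25.7 in T2 replicate 1 and 13.2 in replicate 2, and 22 of the 30 stood higher in replicate 1.

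By role, the T2-only share was 11.1% for PRC2, 5.48% for PRC1, 2.44% for the H3K4 methyltransferases, 6.06% for the demethylases, 8.33% for SWI/SNF and 23.1% for the acetyltransferases and others, beside 6.88% over all regions. The T1-only shares ran from 0 to 5.56%, beside 2.33%. Counts this small are given as a description. Of 36 regions near the PRC2 genes, 4 were T2-only and 2 T1-only. Percentiles in this and the next paragraphs are within the full list of the library. Ezh2 had 2 T2-only regions among only 4 in its window. One lay inside the gene, 29.2 kb from the start (chr6:47565506-47566159), at percentiles 32.7 and 39.6 in T2 replicates 1 and 2. The other lay just beyond the gene's far end (chr6:47527689-47528189), at 14.2 and 7.37. At Jarid2 both classes were found. A T1-only region 8.51 kb upstream (chr13:44722096-44722439) stood at 50.9 and 41.5 in T1 replicates 1 and 2, and one inside the gene (chr13:44760641-44761044) at 23.6 and 5.57. The T2-only one (chr13:44839799-44840770) stood at 4.67 and 6.03, near the floor of the T2 lists. That of Suz12 (chr11:80052341-80052770), which lies in the neighbouring gene Crlf3, stood at 2.48 and 6.03. Ezh1 and Eed had none.

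**Figure D4:**
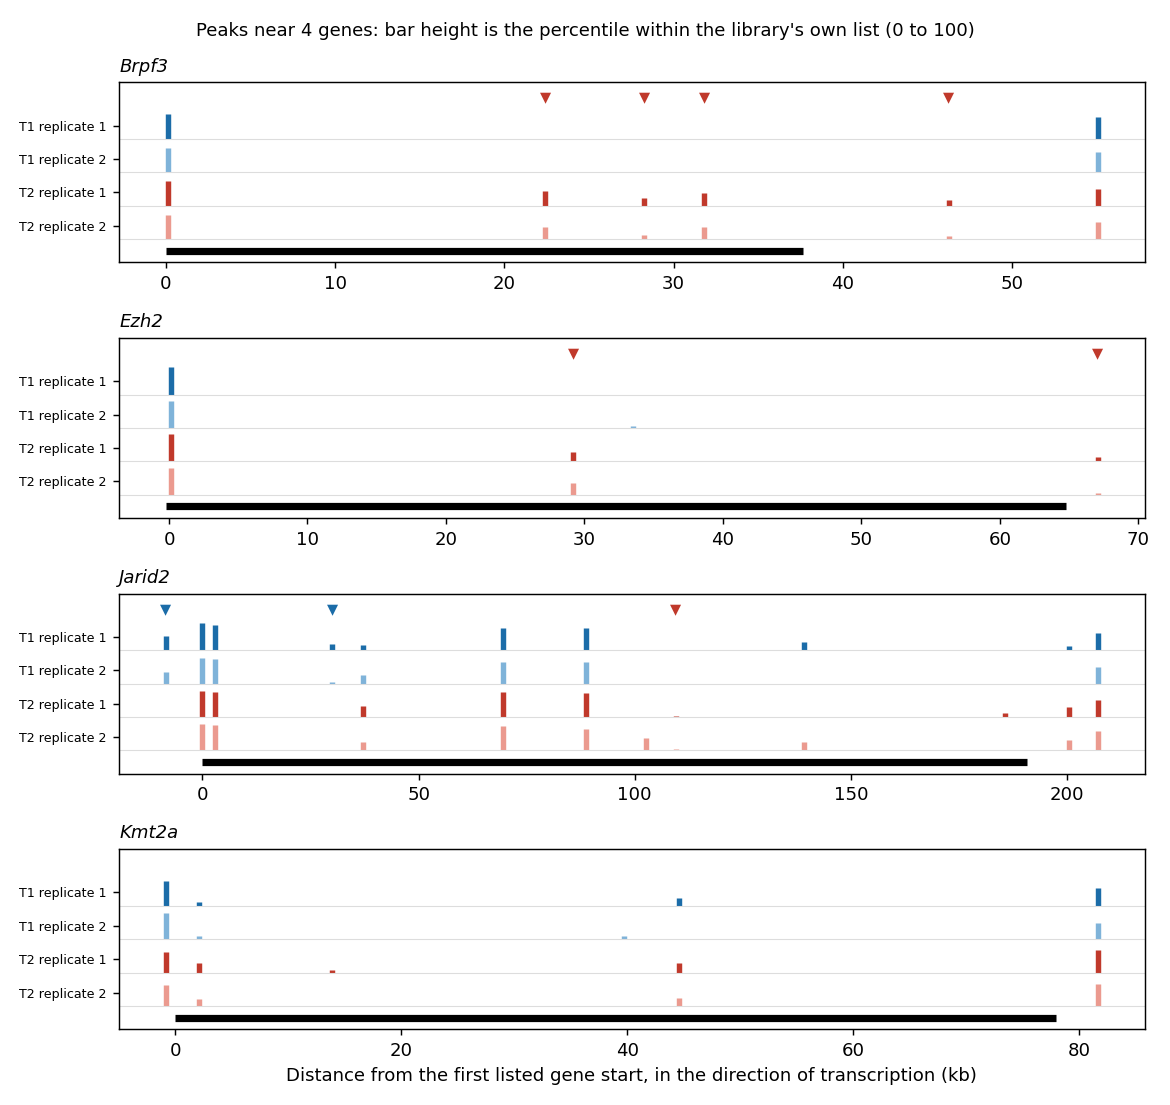
Peaks near Brpf3, Ezh2, Jarid2 and Kmt2a by distance from the first listed start in the direction of transcription (x axis, kb), 1 track per library, with bar height the percentile within that library's own list (0 to 100), triangles marking T1-only (blue) and T2-only (red) regions, and the black bar the gene. The 4 T2-only regions of Brpf3 lie between its start and the shared region downstream, and Kmt2a has no group-only region.

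Of 73 near the PRC1 genes, 4 were T2-only and 1 T1-only. The T1-only region, in the Ring1 window but inside Rxrb (chr17:34033009-34033351), stood at 20 and 37.3 in T1. Phc2 had 2 T2-only regions, at chr4:128768274-128768573 (13.3 and 3.21 in T2) and chr4:128769478-128769834 (8.70 and 6.03), close together beyond the gene. Both were weak. The Cbx8 window had 1 (chr11:119058040-119058960) at 23.9 and 14.8, and Pcgf5 had 1 (chr19:36477054-36477627) at 24.9 and 12.7. Bmi1, Rnf2, Cbx2, Cbx7, Phc1 and Pcgf1 had none. The H3K4 methyltransferase genes, whose starts differed most in rank, had 1 group-only region among 41. It lay inside Kmt2b (chr7:30572611-30573546), at 55.9 and 27.9 in T2. The demethylase genes had 2 among 33, both T2-only, in Kdm5b (chr1:134615081-134615341, 28.3 and 9.29) and near Kdm6b (chr11:69379668-69379973, 17.9 and 40.2). Kdm5a and Kdm6a had none.

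The 120 regions near SWI/SNF genes included 10 T2-only and 1 T1-only. Arid1b held 3 of the T2-only regions, all inside the gene. They lay at chr17:5206668-5207132 (37.8 and 24.9 in T2), chr17:5216978-5217284 (26.5 and 7.11) and chr17:5321616-5322067 (32.7 and 42.7). Its T1-only region lay 83.2 kb into the gene (chr17:5078138-5078501), at 28.5 and 16.5 in T1. Smarca2 had 2 T2-only regions late in the gene, at chr19:26758313-26758753 (17.7 and 10.9) and chr19:26771789-26772193 (16.3 and 3.21). The others had 1 each. Those of Smarcb1 (chr10:75912501-75913090, 19.5 and 18.2), Smarcc1 (chr9:110139141-110139390, 33.6 and 1.16) and Arid1a (chr4:133744794-133745061, 15.2 and 3.82) lay inside the gene within 10 kb of a start. That of Arid2 (chr15:96344781-96345383) stood at 41.6 and 11.9, and that of Smarcd1, inside the neighbouring Asic1 (chr15:99691033-99691399), at 6 and 18.3. Smarca4 and Pbrm1 had none.

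The acetyltransferase genes with Brpf3 and Smyd3 had 9 T2-only regions and 1 T1-only region among 39, most of them from Brpf3 and Smyd3. All 4 regions of Brpf3 that were not shared by every library were T2-only. The first, at the start of the predicted gene Gm35883 (chr17:28823267-28823828), stood at 53.6 and 43.8 in T2, and the next (chr17:28829231-28829567) at 27.3 and 13.6. The other two stood at 43.9 and 44.3 inside the gene (chr17:28832670-28833182) and at 19.5 and 12.7 downstream (chr17:28847058-28847710). The T2 libraries thus had 6 regions in this window and the T1 libraries 2. At least 4 T2-only regions with no T1-only region are found at 33 of 21887 protein-coding genes (0.151%). At equal list length, and also with −log10 q of at least 10, the T2-only minus T1-only count of Brpf3 was 2. Smyd3, a lysine methyltransferase with a SET and MYND domain, held the strongest T1-only region of all (chr1:179045914-179046828), at 73.0 and 70.8 in T1. It also had 3 T2-only regions, at chr1:179116866-179117714 (43.9 and 37.4), chr1:179142172-179142647 (13.3 and 30.0) and chr1:179477002-179477502 (30.9 and 19.7). Ep300 had 1 T2-only region 8.33 kb upstream (chr15:81577684-81578083), at 54.8 in T2 replicate 1 and 6.03 in replicate 2. The Crebbp window had 1 inside Trap1 (chr16:4068569-4069059), at 60.0 and 38.7, the highest of the T2-only regions in replicate 1. Without Brpf3 and Smyd3, 23 of 314 regions were T2-only (7.32%) and 4 T1-only (1.27%).

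The starts of other genes of these complexes also leaned towards T1. A list of 92 further subunits and related enzymes, all matched by symbol, had 559 regions in its windows. Of these 26 were T2-only (4.65%, against 6.88% of all regions) and 11 T1-only (1.97%, against 2.33%). Of their 65 shared start regions 28 ranked higher in T1 (43.1%) and 12 in T2 (18.5%), with a median difference of -2.03 points, where all shared start regions gave 29.8%, 22.1% and -0.48. Whether this list differs from the 38 genes was not tested. Genes with 2 or more group-only regions of 1 class were few. Chd7, a chromodomain remodeller, had 3 T1-only regions and 1 T2-only region among 17, and Ncoa6, a COMPASS-associated coactivator, had 2 T1-only regions among 6. Brpf1, the paralogue of Brpf3, had 2 T2-only regions among 6, Bicral, a subunit of the non-canonical SWI/SNF form, had 2 among 12, and Dpf3, a subunit that binds acetylated and methylated histones, had 2 T2-only regions and 1 T1-only region among 14.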

How the data were processed

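The 4 peak lists were used as deposited. Per the submitters' processing notes, the authors used Bowtie2, SAMtools and MACS2 with mm10; no version, setting or read filter is given in the sources used here. The deposited fold value (a ratio of the summit to local background), the deposited −log10 p and −log10 q, the deposited score and the deposited summit offset are each a peak's own values; ranks used −log10 q, and the fold only as an alternative. None is a read count, so depth is unknown. Every −log10 q was at least 2. Peaks on other sequences (12 to 15 per list) were left out.

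Peaks sharing 1 bp were joined (Python 3.11.15, pandas 2.3.3), and the procedure was tested on simulated lists. Gene positions and promoter sequences came from RefSeq tables on GRCm38.p6, and 5 regions lie in the windows of both Cbx2 and Cbx8. Members, role groups and lists were chosen with earlier results of these data known. Named with values are all T1-only and T2-only regions, all start regions and the 10 shared regions with the largest rank difference. Kdm6b, Tmem25 and the other shared regions given in the text were chosen after their values were seen. No test was made across regions or genes. Alternatives were −log10 q of at least 5 or 10, equal list length, peaks covering at least 0.5 of a region, windows of 250 bp around summits, gene body only or 50 kb flanks, other rankings, and leaving out each library. Leaving out Brpf3 and Smyd3, or regions at starts of other genes, was added after the data had been seen.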

Additional observations from a re-analysis of the deposited data

How the results depend on the processing

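The higher rank of start regions in T1 held its direction in each alternative that was run. The larger number of T2-only than T1-only regions did not, and nor did the sign of the median difference over all shared member regions. That median was -1.50 in the main ranking and 1.20 when each library's own list set the ranks, T2 lists being longer. At equal list length 13 regions were T1-only and 11 T2-only, and Suz12, Phc2, Smarca2, Arid1b and Smyd3 each came to -1 (T2-only minus T1-only). Gene bodies alone gave 3 T1-only, 19 T2-only, 112 regions in all libraries, 24 higher in T2, 42 higher in T1 and a median difference of -2.40. Flanks of 50 kb gave 309 regions in all libraries and 101 higher in T1. Ranking by fold gave a median of -2.25. Ranking in each library's own list gave 38 higher in T1, a median of 1.20, 15 start regions higher in T1 and 0.271 at the Cbx7 start. With −log10 q of at least 10, Smarcb1 came to -1. Leaving out 1 library at a time gave 8 to 20 T1-only and 38 to 57 T2-only regions, 201 to 222 in all the libraries left, 84 to 98 higher in T1, 63 to 79 higher in T2, medians of -1.56 to -0.985, and 26 to 29 start regions higher in T1 with 0 to 1 higher in T2. With fewer libraries the background rises too, to 39.5% to 44.7% of all start regions higher in T1, 31.8% to 35.6% higher in T2, and 9.67% to 15.7% of all regions T2-only, so these higher counts are no added support. Without T1 replicate 1 Pcgf5 came to -1, and without T2 replicate 1 Jarid2 came to 1. The labels tie replicate numbers to no animal or day. With a replicate block the median difference was -1.50, the same by construction, from -0.798 in replicate 1 and -1.94 in replicate 2. Of 363 values for single starts 1 reversed, and of 418 for single members 8 reversed and 114 moved. These totals include values that could not be scored as reversed. They are those of starts whose groups overlapped and of members with equal T2-only and T1-only counts. Changes of size at single starts are not counted here, so the low numbers reversed are no measure of stability. Depth is unknown, so absence of a peak is not absence of open chromatin.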

Other observations

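Starts of neighbouring genes lay inside the same windows, and whether they differ from the starts of the chromatin genes was not tested. Of 37 such regions 34 had a peak in all 4 libraries, and of these 12 ranked higher in T1 (35.3%), 6 in T2 (17.6%) and 16 overlapped, with a median difference of -1.74 points, where all shared start regions gave 29.8%, 22.1% and -0.48. The start region shared by Commd3 and Gm33355, beside Bmi1, ranked 73.1 and 79.5 in T1 and 73.0 and 61.3 in T2. That of Pigv, beside Arid1a, ranked 80.3 and 76.7 in T1 and 72.3 and 68.8 in T2. Both stood higher in T1, as the starts of Bmi1 and Arid1a did. At H2-Ke6, beside Ring1, the order was the reverse of that at the Ring1 start, with 66.5 and 64.7 in T1 and 74.0 and 71.7 in T2. These examples were chosen after their values were seen.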
